A study of Rattus norvegicus with 13 samples.

Results

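Bile acid synthesis and transport was followed through 10 hepatic genes in pregnant rats given ethanol, a reduced energy supply, or both. They were Cyp7a1, Cyp27a1, Baat, Slc10a1, Slco1a1, Slco1a4, Abcb11, Abcc2, Nr0b2 and Nr1h4, and they were chosen by name from the 4736 genes that the array's probe sets name singly. Every probe set that the array's annotation assigns to exactly 1 of these genes was taken, which gave 14 of the 8740 probe sets other than controls. Of these, 13 were bright enough to be tested among 5244 tested probe sets, and each of the 10 genes kept at least 1. The remaining probe set, a second one for Cyp7a1, lay at the lowest value allowed, a signal of 9.34, on each of the 13 arrays.

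Hepatic RNA from time-mated female Sprague Dawley rats was hybridised to 13 one-colour Affymetrix rat arrays. EtOH-160 (n = 4) was an undernourished group that received 160 kcal per day for each kg of body mass raised to the power 0.75, with ethanol at 12 g per kg per day. TEN-160 (n = 3) received 160 kcal without ethanol, EtOH-220 (n = 3) received 220 kcal with the same ethanol dose, and TEN-220 (n = 3) received 220 kcal without ethanol. The labels leave unsaid whether single animals or pools were hybridised, so p-values measure only the spread between these samples, and they name no day of gestation. Values below are quantile-normalized array signals on a linear scale, and changes are differences between groups in mean log2 signal, given with the standard error (SE).

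Bile acids are made from cholesterol in hepatocytes. Cyp7a1 catalyses the rate-limiting first step of the classic route and Cyp27a1 oxidises the sterol side chain, including the first step of the alternative route; Baat then joins the acids to taurine or glycine. Slc10a1 (NTCP) takes conjugated bile acids up from portal blood together with sodium, and the organic anion transporters Slco1a1 and Slco1a4 do so without sodium. Abcb11 (BSEP) exports bile salts across the canalicular membrane and Abcc2 (MRP2) exports conjugated organic anions such as bilirubin glucuronides. Nr1h4 (FXR) is the nuclear receptor for bile acids, and Nr0b2 (SHP), one of its target genes in mouse and human, is a repressor of Cyp7a1 transcription.

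Lower energy supply without ethanol went with higher signals of the 3 uptake transporters. Of the 13 probe sets, 3 rose in TEN-160 against TEN-220, for Slc10a1, Slco1a1 and Slco1a4, where 7.84% of all tested probe sets rose, and 2 fell, both for Nr0b2, where 9.94% of all tested fell. Ethanol at 160 kcal went with lower Baat and higher Nr0b2: in EtOH-160 against TEN-160, 2 probe sets of Nr0b2 rose, where 11.9% of all tested rose, and the Baat probe set fell, where 10.4% of all tested fell. Both comparisons use the same 3 TEN-160 arrays, so they are not independent of each other. In bulk RNA, fewer cells of a type and less RNA per cell cannot be told apart.

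No probe set of the 10 genes passed the test for ethanol at 220 kcal, for energy supply in the presence of ethanol, or for the difference between the ethanol effects at the 2 energy supplies (the interaction). In EtOH-220 against TEN-220, 0 of 13 rose and 0 fell by limma, against 0% and 0.0191% of all tested, while 4 had an unadjusted p under 0.05, against 9.99% of all tested. In EtOH-160 against EtOH-220, 0 rose and 0 fell, against 0.21% and 0.0763% of all tested, while 5 had an unadjusted p under 0.05, against 11.1% of all tested. In the interaction, 0 were higher and 0 lower, against 4.04% and 3.09% of all tested, while 7 had an unadjusted p under 0.05, against 24.4% of all tested. The median change over the 13 probe sets was 0.03 for ethanol at 220 kcal, 0.00 for ethanol at 160 kcal, 0.06 for energy without ethanol and 0.03 for energy with ethanol, beside medians over all tested probe sets of −0.04, 0.02, −0.03 and 0.00. In the interaction the median was 0.55 over the 13 probe sets and 0.04 over all tested. The 13 hold 3 probe sets of Nr0b2 and a pair of Cyp27a1, and with only the brightest probe set of each gene the medians over the 10 genes were −0.01, −0.22, 0.22 and 0.01 in the 4 pairwise comparisons and −0.17 in the interaction, so that the sign turned for ethanol at both energy supplies and for the interaction.

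**Figure D1:**
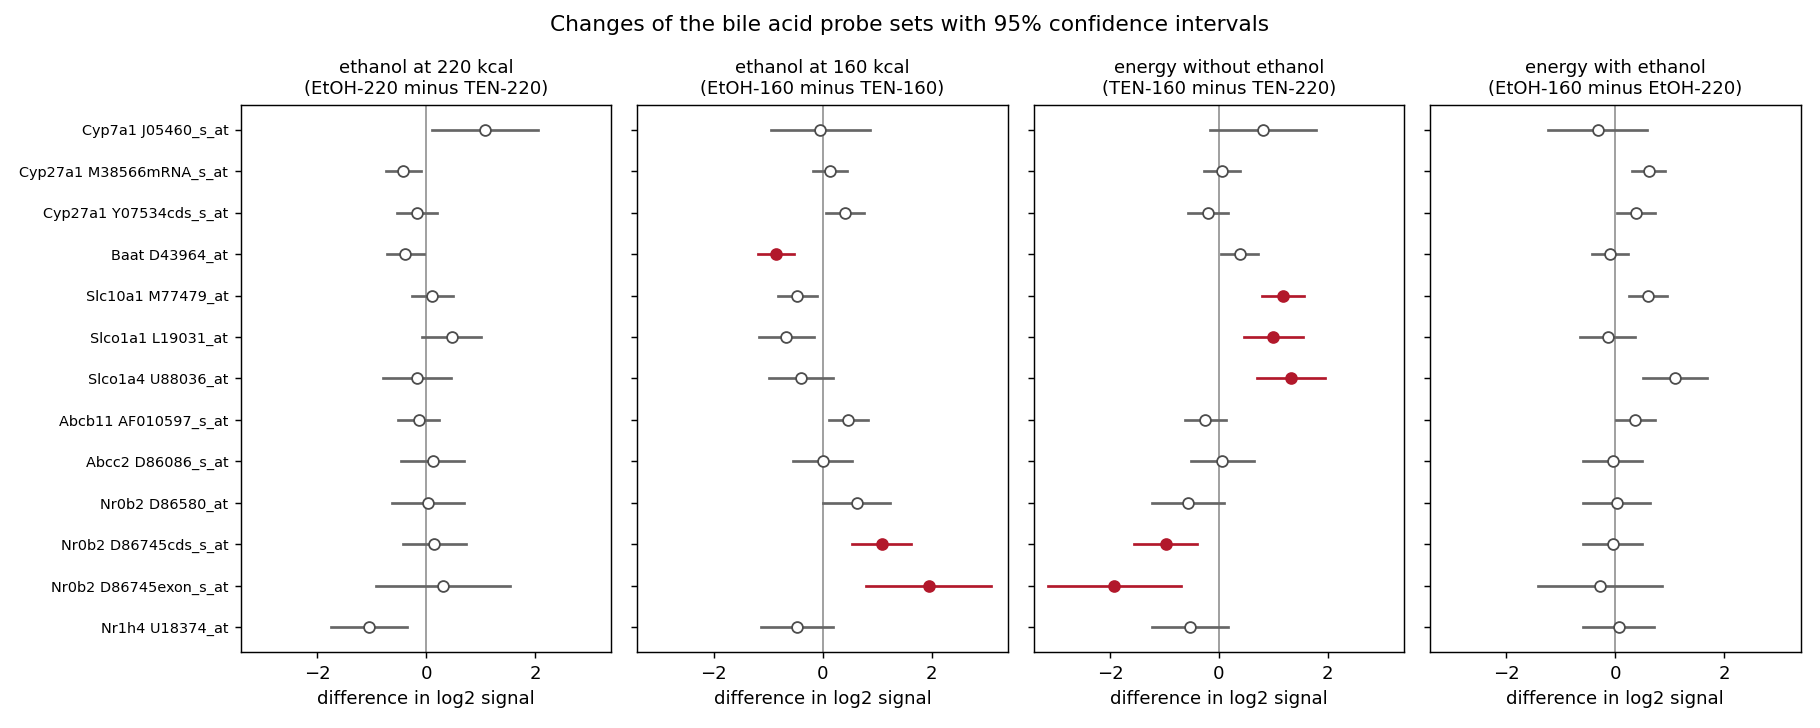
Change of each tested probe set of the 10 genes in the 4 pairwise comparisons (x axis, difference of mean log2 signal; bars, 95% interval of the limma fit; red, adjusted p under 0.05). Slc10a1, Slco1a1 and Slco1a4 lie right of 0 for TEN-160 minus TEN-220, with changes of 1.18, 1.00 and 1.32, and Baat lies left of 0 for EtOH-160 minus TEN-160, at −0.86.

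In a control and in many probe sets the 3 TEN-160 arrays were set off from the other 10. The ratio of the BioDn-5 to the BioDn-3 control signal, for 2 ends of a spiked bacterial transcript, was 0.422 to 0.497 in TEN-160, against 0.132 to 0.21 on all other arrays. All 3 TEN-160 arrays lay above, or all below, the other 10 arrays for 15% of tested probe sets, and of the 13 probe sets this held for 1, of Nr0b2. The ratio of the 3′ to the 5′ GAPDH control signal was 1.5 to 1.73 in EtOH-160, 1.03 to 1.24 in TEN-160, 1.04 to 1.47 in EtOH-220 and 1.52 to 2.32 in TEN-220. The same ratio for actin was 1.91 to 2.96 in TEN-160, inside the range of 1.77 to 3.0 on the other 10 arrays. The part of these differences in the results was not tested. One array, TEN-220 replicate 1, had been deposited at another scale, with a trimmed mean signal of 133.3 against 500.9 on the other 12, and quantile normalization rescaled it.

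Hepatocyte markers were high in every group, and some markers of hepatocytes and of other cell types differed between groups. The summed signal of 6 hepatocyte genes of a list of 7 was 105289 to 115802 in EtOH-160, 114573 to 123107 in TEN-160, 113580 to 121866 in EtOH-220 and 110944 to 120797 in TEN-220. Of 15 tested hepatocyte probe sets, 1 rose and 2 fell in EtOH-160 against TEN-160, beside 11.9% and 10.4% of all tested. In TEN-160 against TEN-220, 1 rose and 1 fell, beside 7.84% and 9.94%. Hnf4a averaged 1042 in EtOH-160, 734 in TEN-160, 1026 in EtOH-220 and 728 in TEN-220. Alb and Apoa1 also averaged higher with ethanol at both energy supplies. Fgb and Ttr averaged lower, and Ahsg lower only at 160 kcal. The sum of 8 stellate cell and fibroblast genes of 10 was 1417 to 2339 in EtOH-160, 2370 to 4754 in TEN-160, 1535 to 1932 in EtOH-220 and 2175 to 2193 in TEN-220. In this sum each ethanol group lay below the group without ethanol at its energy supply. Col3a1 weighed most in it, with group averages of 910 to 1318. Acta2 was higher with ethanol, at 48.9 in EtOH-160, 15.4 in TEN-160, 102 in EtOH-220 and 74.1 in TEN-220. Dcn was higher with ethanol at 160 kcal only, and the other genes averaged lower with ethanol. The sum of 5 endothelial genes of 9 was 739 to 949 in EtOH-160, 850.1 to 1368 in TEN-160, 873 to 896 in EtOH-220 and 649 to 681 in TEN-220. The sum of 5 blood cell genes of 9 was 5519 to 9727 in EtOH-160, 8391 to 17055 in TEN-160, 10779 to 15790 in EtOH-220 and 8905 to 11859 in TEN-220, so that EtOH-160 lay below EtOH-220. The sum of 7 Kupffer cell and macrophage genes of 12 was 6126 to 7487 in EtOH-160, 7279 to 9048 in TEN-160, 5804 to 9038 in EtOH-220 and 7953 to 9057 in TEN-220, and of its 11 tested probe sets 2 rose and 1 fell in EtOH-160 against TEN-160. Cd14 of this list averaged 965 in EtOH-160, 552 in TEN-160, 908 in EtOH-220 and 520.2 in TEN-220. Most of the list went the other way: C1qb, Clec4f, Cd74, Lyz2 and Csf1r averaged lower with ethanol at both energy supplies, and C1qc only at 220 kcal. C1qb averaged 1774 in EtOH-160, 2239 in TEN-160, 1911 in EtOH-220 and 2498 in TEN-220. S100a8 and S100a9 of the blood cell list had lower averages in both ethanol groups, near or below the background signal of 46.6. S100a9 averaged 30.7 in EtOH-160, 185 in TEN-160, 44.6 in EtOH-220 and 107 in TEN-220. Alas2 of the same list was higher in both ethanol groups, with 332 in EtOH-160, 238 in TEN-160, 481 in EtOH-220 and 306 in TEN-220. Hbb and Ptprc averaged lower with ethanol at 160 kcal and higher with it at 220 kcal. In the TEN-160 comparisons, where the uptake transporters, Baat and Nr0b2 changed, some of these sums differed as well. The stellate cell and fibroblast sum was higher in all TEN-160 arrays than in all EtOH-160 and all TEN-220 arrays. The endothelial sum was higher in TEN-160 than in TEN-220, while the Kupffer cell and blood cell sums overlapped in both comparisons. The part of the marker differences in the changes of the bile acid genes was not tested. Of 8 bile duct genes of a list of 10, Spp1 alone lay below the background signal of 46.6 in every group. Group averages were 86 to 114 for Cftr and 55.7 to 108 for Epcam, and Krt19 averaged 66.3 in EtOH-160, 29.8 in TEN-160, 48.8 in EtOH-220 and 65.2 in TEN-220. Krt18 averaged 2957 in EtOH-160, 4320 in TEN-160, 2758 in EtOH-220 and 3635 in TEN-220. Krt8 was lowest where Krt18 was highest, with 1438 in EtOH-160, 935 in TEN-160, 1294 in EtOH-220 and 1274 in TEN-220. The sum of the 8 genes was 4920 to 7793 in EtOH-160, 5487 to 8434 in TEN-160, 4253 to 5809 in EtOH-220 and 5582 to 6621 in TEN-220. Krt18, Krt8 and Anpep were the brightest of the 8, so the sum mainly follows these and says little of the dimmer genes.

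The region upstream of the transcription start is shown for the 5 genes that passed a test in some comparison, so that their changes can be set beside their promoters. Each is the 250 bases before the start on the gene's strand, from RefSeq's rat assembly GRCr8, printed 5′ to 3′, and capitals mark matches to the motifs named after them. Slc10a1 is at chr6:106357945-106358194 on the minus strand, Slco1a1 at chr4:176681993-176682242 and Slco1a4 at chr4:176495847-176496096 on the minus strand, Baat at chr5:68656138-68656387 on the minus strand, and Nr0b2 at chr5:151062910-151063159 on the plus strand.
Slc10a1: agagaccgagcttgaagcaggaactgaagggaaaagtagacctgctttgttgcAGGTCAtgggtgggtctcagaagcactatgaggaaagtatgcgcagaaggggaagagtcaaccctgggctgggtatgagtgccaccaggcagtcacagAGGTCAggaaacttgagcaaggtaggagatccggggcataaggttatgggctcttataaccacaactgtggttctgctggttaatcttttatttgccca
Slco1a1: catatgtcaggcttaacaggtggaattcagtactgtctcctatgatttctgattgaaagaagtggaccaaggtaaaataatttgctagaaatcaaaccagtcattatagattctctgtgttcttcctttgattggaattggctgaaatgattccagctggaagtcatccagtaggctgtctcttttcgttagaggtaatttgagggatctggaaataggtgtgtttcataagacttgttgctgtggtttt
Slco1a4: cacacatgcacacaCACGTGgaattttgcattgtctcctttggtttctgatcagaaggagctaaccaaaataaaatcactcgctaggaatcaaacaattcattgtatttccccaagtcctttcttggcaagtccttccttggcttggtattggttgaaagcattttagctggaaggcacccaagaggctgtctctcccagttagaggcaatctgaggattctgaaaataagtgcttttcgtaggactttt
Baat: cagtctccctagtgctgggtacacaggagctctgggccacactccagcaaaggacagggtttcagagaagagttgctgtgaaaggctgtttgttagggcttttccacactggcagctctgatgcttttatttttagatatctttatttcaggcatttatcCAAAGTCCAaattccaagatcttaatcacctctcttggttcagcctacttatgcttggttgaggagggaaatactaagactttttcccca
Nr0b2: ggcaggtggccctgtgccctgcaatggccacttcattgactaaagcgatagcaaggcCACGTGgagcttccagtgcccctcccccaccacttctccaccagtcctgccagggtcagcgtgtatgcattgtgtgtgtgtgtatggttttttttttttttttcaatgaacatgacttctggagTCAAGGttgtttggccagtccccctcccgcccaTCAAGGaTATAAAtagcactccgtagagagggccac

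Motifs were searched on both strands in the 7 of 10 genes for which a promoter was at hand, and in all 33469 promoters over the same 250 bases. The nuclear receptor half-site AGGTCA occurs 2 times in Slc10a1, at −197 to −192 and −99 to −94 from the start site, and also in Cyp27a1 and Abcc2; 14.1% of all promoters hold it. The HNF4 motif CAAAGTCCA occurs in Baat at −90 to −82 and in 0.338% of all promoters. Nr0b2 holds TCAAGG, the core that NR5A2 (LRH-1) recognises, at −69 to −64 and −36 to −31 (12.6% of promoters), the TATA box TATAAA at −29 to −24 (12.9%), and the E-box CACGTG at −193 to −188. Slco1a4 has the E-box at −236 to −231, and 5.59% of all promoters have it. The longer CAAGGTCA, which overlaps the half-site and shares CAAGG with the NR5A2 core, occurs in Cyp27a1 alone of the 7 and in 1.33% of promoters. The half-site repeated with 1 base between, as an FXR-type inverted repeat or as a direct repeat (DR1), matched none of the 7 and 0.0269% and 0.0508% of all promoters, which says only that these letters are not in this window. No motif searched matched Slco1a1.

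Slco1a1 and Slco1a4 lie on chromosome 4 with 0 protein-coding genes between them in GRCr8. Their 250 upstream bases aligned with 179 identical bases, or 71.6% of the window, where the other 20 pairs among the 7 promoters had 53.6 to 60%. Whether transcripts of these related genes share signal on the array was not tested.

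Cyp7a1, the rate-limiting enzyme, varied widely within TEN-220 and passed no test. Its normalized signal was 862, 553, 657 and 591 in EtOH-160 samples and 572, 952 and 565 in TEN-160 samples. It was 1006, 628 and 872 in EtOH-220 samples, against 159, 416 and 879 in TEN-220 samples. All groups overlapped, and the TEN-220 arrays spanned both the lowest value of all 13 and one of the highest. In EtOH-220 against TEN-220 the change was 1.08 (SE 0.453, 95% interval 0.11 to 2.05, adjusted p = 0.475), and in TEN-160 against TEN-220 it was 0.80 (SE 0.453, adjusted p = 0.247). The TEN-160 minus TEN-220 change was called, at 1.40 with an adjusted p of 0.0288, only when TEN-220 replicate 3 was left out. Without TEN-220 replicate 1, the lowest array, it was 0.16 (adjusted p 0.81) and the EtOH-220 minus TEN-220 change was 0.44 (adjusted p 0.853). Between EtOH-160 and TEN-160 the difference was −0.04, with a 95% interval of −0.95 to 0.87.

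Cyp27a1, a mitochondrial sterol hydroxylase, was read by a pair of probe sets and passed no test with either. The probe set M38566mRNA_s_at gave 4056, 5381, 4926 and 4139 in EtOH-160 samples and 3747, 4961 and 3928 in TEN-160 samples. It gave 2668, 3188 and 3191 in EtOH-220 samples, against 4080.0, 3961 and 4004 in TEN-220 samples. The EtOH-220 arrays were the 3 lowest of the 13, below all TEN-220 and all EtOH-160 arrays. The change was 0.61 in EtOH-160 against EtOH-220 (SE 0.143, adjusted p = 0.0925) and −0.42 in EtOH-220 against TEN-220 (SE 0.152, adjusted p = 0.406). For the second probe set, Y07534cds_s_at, the EtOH-160 arrays read 2612, 2765, 3618 and 2590.0 and the TEN-160 arrays 1781, 2185 and 2566. The EtOH-160 arrays lay above all TEN-160 arrays, with a change of 0.41 (SE 0.163, adjusted p = 0.0847). That change was called with trimmed-mean scaling (adjusted p 0.035), with median-centred values (0.00699) and without TEN-160 replicate 3 (0.0495). The EtOH-160 arrays also lay above all EtOH-220 arrays, which read 2066, 2389 and 2158, while the TEN-220 arrays read 2521, 2189 and 2748. The EtOH-220 minus TEN-220 change of this probe set was −0.17, with a 95% interval of −0.54 to 0.20.

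Baat, which conjugates bile acids, was lower with ethanol at 160 kcal. Its signal was 2328, 3112, 2527 and 2705 in EtOH-160 samples, against 4686, 4080.0 and 5789 in TEN-160 samples. In EtOH-220 samples it was 2953, 2626 and 2939, against 3468, 3426 and 4236 in TEN-220 samples. Within each energy supply all ethanol arrays lay below all arrays without ethanol. Baat fell by 0.86 in EtOH-160 against TEN-160 (log2 change −0.86, SE 0.151, adjusted p = 0.00165). The call held when any single array was left out but not with values as deposited, which leave 1 array at its own scale (adjusted p 0.538). The EtOH-220 minus TEN-220 change of −0.38 (SE 0.161, adjusted p = 0.478) did not pass. The difference between the ethanol effects was −0.48 (SE 0.22, adjusted p = 0.203). The difference of TEN-160 or EtOH-160 from its 220 kcal group was 0.38 without ethanol and −0.10 with ethanol, with adjusted p of 0.123 and 0.872.

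Across both energy supplies, the 7 ethanol arrays ranged from 2328 to 3112 for Baat and the 6 arrays without ethanol from 3426 to 5789. All ethanol arrays were lower than all others for 0.839% of tested probe sets, and Baat was the 1 member among them. This grouping over both energy supplies was chosen after the values were seen.

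**Figure D2:**
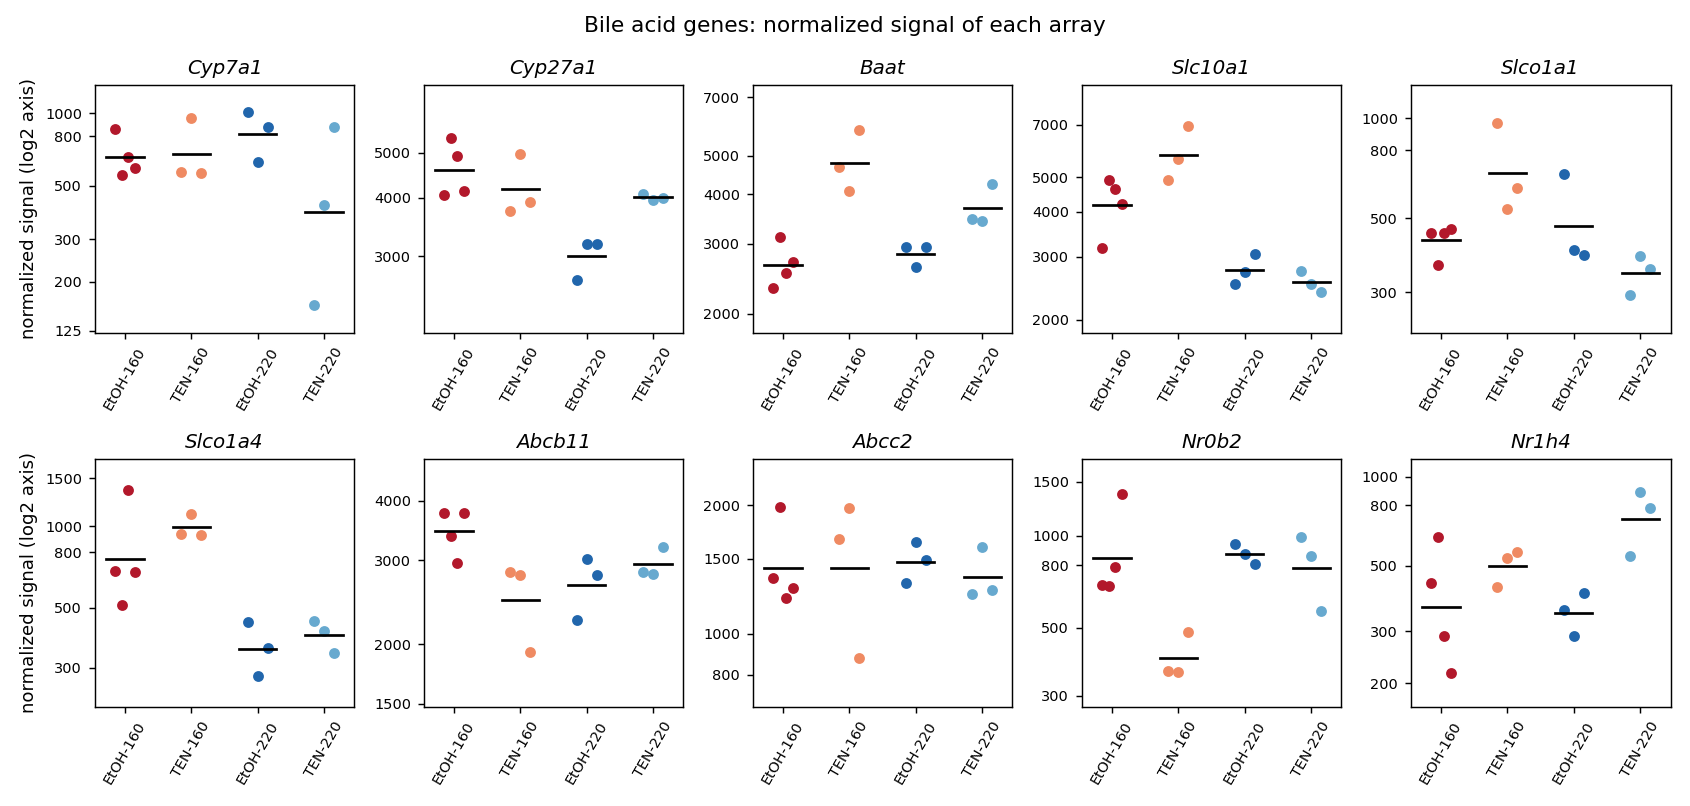
Normalized signal of each array (y axis, log2 scale) by group for the brightest probe set of each of the 10 genes; points are arrays and lines are geometric means. Slc10a1 and Slco1a4 are higher in both 160 kcal groups than in both 220 kcal groups, and Baat is lower in each ethanol group than in the group without ethanol at the same energy supply.

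Slc10a1, the sodium-dependent uptake carrier, was higher in the undernourished samples. Its signal was 3171, 4891, 4641 and 4217 in EtOH-160 samples and 4891, 5631 and 6948 in TEN-160 samples. It was 2513, 2711 and 3054 in EtOH-220 samples and 2741, 2513 and 2389 in TEN-220 samples. The ranges of 3171 to 6948 in the 7 samples at 160 kcal and of 2389 to 3054 in the 6 samples at 220 kcal did not overlap. Slc10a1 rose by 1.18 in TEN-160 against TEN-220 (SE 0.178, adjusted p = 0.000766), and this call held under all 22 alternatives tried. In EtOH-160 against EtOH-220 the change was 0.60 (SE 0.166, adjusted p = 0.152) and did not pass, although it did, with an adjusted p of 0.0457, without EtOH-160 replicate 1. The difference between the ethanol effects at the 2 energy supplies was −0.58 (95% interval −1.10 to −0.06, adjusted p = 0.159). The ethanol difference of Slc10a1 was −0.47 at 160 kcal (SE 0.166, adjusted p = 0.0598) and 0.11 at 220 kcal (SE 0.178, adjusted p = 0.881). The change at 160 kcal was called without EtOH-160 replicate 2 and without TEN-160 replicate 1, with adjusted p of 0.0473 and 0.044, and with trimmed-mean scaling (adjusted p 0.0467).

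Slco1a4, a sodium-independent carrier for bile acids and cardiac glycosides, also had a higher signal in the samples at 160 kcal. The signal was 682, 511, 1363 and 678 in EtOH-160 samples and 938, 1112 and 924 in TEN-160 samples. It was 441, 280.0 and 355 in EtOH-220 samples and 446, 410.5 and 339.5 in TEN-220 samples. All 7 samples at 160 kcal, from 511 to 1363, lay above all 6 at 220 kcal, from 280.0 to 446, and EtOH-160 replicate 3 was the highest of all. Slco1a4 rose in TEN-160 against TEN-220 by 1.32 (SE 0.293, adjusted p = 0.00803), a call that held under all 22 alternatives. The EtOH-160 minus EtOH-220 change was close in size, 1.10 (SE 0.274), but its adjusted p was 0.11 in a comparison that called few probe sets in all. The interaction was −0.22, with a 95% interval of −1.08 to 0.64. The ethanol difference of Slco1a4 was −0.39 at 160 kcal and −0.17 at 220 kcal, with adjusted p of 0.333 and 0.897; without EtOH-160 replicate 3, the change at 160 kcal was −0.68 with an adjusted p of 0.0373.

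Slc10a1 and Slco1a4 were the 2 members for which every 160 kcal sample exceeded every 220 kcal sample, which held for 0.744% of all tested probe sets. This grouping, too, was chosen after the values were seen.

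Slco1a1, the third uptake carrier, was higher in TEN-160 than in TEN-220. Its signal was 451, 362, 452 and 464 in EtOH-160 samples, against 968, 533 and 616 in TEN-160 samples. It was 679, 403 and 388 in EtOH-220 samples, against 294, 386 and 352 in TEN-220 samples. All TEN-160 values exceeded all EtOH-160 and all TEN-220 values, but EtOH-220 replicate 1, at 679, exceeded 2 of them. Slco1a1 rose in TEN-160 against TEN-220 by 1.00 (SE 0.253, adjusted p = 0.0159). The adjusted p was 0.0682 without TEN-220 replicate 1, 0.0628 without TEN-160 replicate 1 and 0.063 with median-centred values. In EtOH-160 against TEN-160 the change was −0.67 (SE 0.237, adjusted p = 0.0583), and in EtOH-220 against TEN-220 it was 0.47 (SE 0.253, adjusted p = 0.573). The change at 160 kcal was called without EtOH-220 replicate 1 and without TEN-160 replicate 2, with adjusted p of 0.0288 and 0.0355. The interaction was −1.14 (SE 0.346, 95% interval −1.88 to −0.39, adjusted p = 0.0623), and its adjusted p was 0.0442 without TEN-160 replicate 2. Between EtOH-160 and EtOH-220 the change was −0.14, with a 95% interval of −0.65 to 0.37.

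The canalicular exporters passed no test. The signal of Abcb11, the bile salt export pump, was 3758, 3374, 2953 and 3765 in EtOH-160 samples, against 2836, 2794 and 1924 in TEN-160 samples. It was 2244, 3020.0 and 2798 in EtOH-220 samples, against 2833, 2810.0 and 3194 in TEN-220 samples. All EtOH-160 arrays lay above all TEN-160 arrays, and the other groups overlapped. The EtOH-160 minus TEN-160 change of Abcb11 was 0.47 (SE 0.165, adjusted p = 0.0545), just short of the threshold of 0.05. It was called with trimmed-mean scaling (0.56, adjusted p 0.0281) and with median-centred values (0.76, adjusted p 0.0114). Leaving out EtOH-160 replicate 3 (adjusted p 0.045) or EtOH-220 replicate 1 (0.0378) also gave a call. With median-centred values the interaction of Abcb11 was called too, at 1.01 (adjusted p 0.0364), against 0.62 (adjusted p 0.132) in the main fit. At 220 kcal the ethanol change was −0.14, with a 95% interval of −0.52 to 0.24.

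For Abcc2, the signal was 1349, 1982, 1209 and 1277 in EtOH-160 samples and 1664, 1976 and 875 in TEN-160 samples. In EtOH-220 samples it was 1316, 1639 and 1488, against 1242, 1599 and 1267 in TEN-220 samples. All 4 groups overlapped. The 95% interval of the Abcc2 change was −0.54 to 0.54 for ethanol at 160 kcal, −0.46 to 0.70 for ethanol at 220 kcal, −0.51 to 0.64 for energy without ethanol and −0.59 to 0.49 for energy with ethanol.

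Nr0b2, the repressor SHP, was lowest in the TEN-160 samples. It was read by 3 probe sets, of which D86745cds_s_at and D86745exon_s_at were designed from 1 sequence record and are not independent. The signal of D86745cds_s_at was 688, 683, 787 and 1370.0 in EtOH-160 samples, against 362, 359 and 486 in TEN-160 samples. It was 936, 869 and 806 in EtOH-220 samples, against 992, 857 and 569 in TEN-220 samples. The 3 TEN-160 arrays were lower than all others, and EtOH-160 replicate 4 was the highest. The signal of D86745cds_s_at rose by 1.08 in EtOH-160 against TEN-160 (SE 0.252, adjusted p = 0.00851), a call that held when any single array was left out but not with values as deposited (adjusted p 0.312). In TEN-160 against TEN-220 the signal of D86745cds_s_at fell (log2 change −0.98, SE 0.269, adjusted p = 0.0233). That call was lost without TEN-220 replicate 1 or 2 and without TEN-160 replicate 1 or 2, with adjusted p between 0.0648 and 0.103, and its adjusted p was 0.0521 without the filter on dim probe sets and 0.612 with values as deposited.

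The other probe sets of Nr0b2 were more variable. The dimmer D86745exon_s_at read 144, 170.3, 254 and 482 in EtOH-160 samples, against 176, 41.1 and 30.8 in TEN-160 samples. It read 316, 278 and 261 in EtOH-220 samples, against 377, 189 and 170.2 in TEN-220 samples. TEN-160 replicates 2 and 3 lay near the background signal of 46.6, which was set before quantile normalization. On that scale they read 50.1 and 43.7. Replicate 1 was within the range of EtOH-160. The change was 1.95 in EtOH-160 against TEN-160 (SE 0.533, adjusted p = 0.0192) and −1.92 in TEN-160 against TEN-220 (SE 0.57, adjusted p = 0.0331). The first call was lost without TEN-160 replicate 2 or 3 or EtOH-160 replicate 4, with adjusted p of 0.0698, 0.0905 and 0.0528. The second was lost on leaving out TEN-160 replicate 2 or 3, or TEN-220 replicate 1 or 2, with adjusted p between 0.0634 and 0.133. Over all alternatives, these calls were lost under 6 and 7 of 22.

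The third Nr0b2 probe set, D86580_at, is named for another sequence record and passed neither test. It read 457, 612, 616 and 1177 in EtOH-160 samples, against 354, 619 and 376 in TEN-160 samples. It read 579, 819 and 605 in EtOH-220 samples, against 701, 654 and 584 in TEN-220 samples. TEN-160 replicates 1 and 3 were the lowest of the 13 arrays, but replicate 2 lay among the others. The changes were 0.63 in EtOH-160 against TEN-160 (adjusted p = 0.131) and −0.57 in TEN-160 against TEN-220 (adjusted p = 0.221). With median-centred values the first of these was called, at 0.82 (adjusted p 0.0469). At 220 kcal the ethanol differences of the 3 Nr0b2 probe sets were 0.03, 0.15 and 0.31, and none passed.

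**Figure D3:**
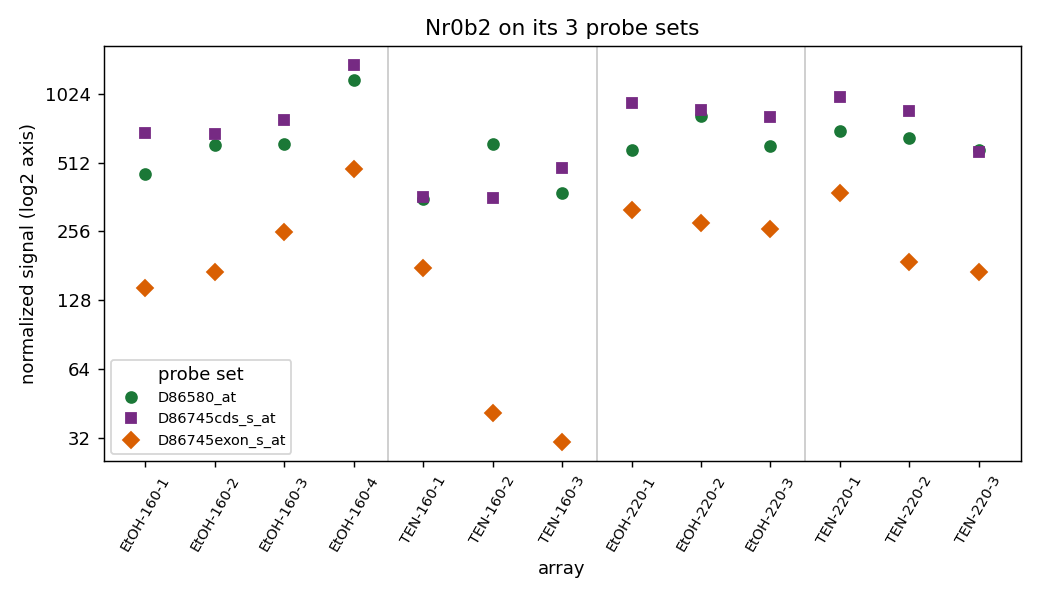
Normalized signal (y axis, log2 scale) of the 3 Nr0b2 probe sets on each of the 13 arrays, by group. The TEN-160 arrays are the lowest for D86745cds_s_at, and 2 of them lie near the background signal of 46.6 for D86745exon_s_at.

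Nr1h4, the bile acid receptor FXR, passed no test. Its signal was 437, 624, 289 and 217 in EtOH-160 samples and 425, 532 and 554 in TEN-160 samples. It was 353, 289.6 and 405 in EtOH-220 samples, against 537, 885 and 782 in TEN-220 samples. The EtOH-220 arrays lay below all TEN-220 arrays, and the EtOH-160 arrays ranged from 217 to 624. The EtOH-220 minus TEN-220 change of Nr1h4 was −1.06 (SE 0.325, 95% interval −1.75 to −0.36, adjusted p = 0.322). In EtOH-160 against TEN-160 it was −0.47 (SE 0.304, adjusted p = 0.293), and in TEN-160 against TEN-220 it was −0.52 (SE 0.325, adjusted p = 0.292).

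Counts of probe sets whose groups did not overlap can be read against those of all tested probe sets. In EtOH-160 against TEN-160 this held for 5 of the 13 probe sets, beside 31.1% of all tested, and in TEN-160 against TEN-220 for 4, beside 36.5%. In EtOH-220 against TEN-220 it held for 4, of Cyp27a1, Baat, Slco1a1 and Nr1h4, beside 17.8%. In EtOH-160 against EtOH-220 it held for 4, a pair of Cyp27a1 and 1 each of Slc10a1 and Slco1a4, beside 10.2%. Set in order by geometric mean, Slc10a1 and Slco1a4 were highest in TEN-160, then EtOH-160, and only the step between the 160 kcal and the 220 kcal groups was free of overlap. For Baat the order was TEN-160, TEN-220, EtOH-220 and EtOH-160, with a gap only between TEN-220 and EtOH-220, and for D86745cds_s_at of Nr0b2 the only gap set TEN-160 below TEN-220. For M38566mRNA_s_at of Cyp27a1 EtOH-220 was set below TEN-220. Neighbours in the order overlapped for all the remaining tested probe sets.

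**Figure D4:**
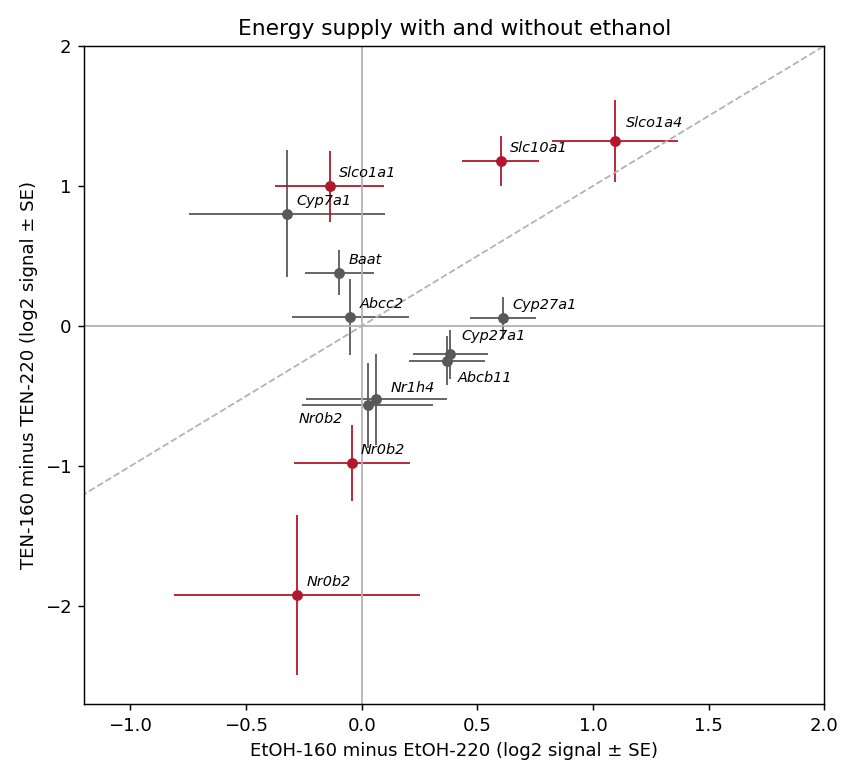
Change with lower energy supply in the presence of ethanol (x axis, EtOH-160 minus EtOH-220) against that in its absence (y axis, TEN-160 minus TEN-220), in log2 signal with SE bars, for the 13 probe sets; red marks an adjusted p under 0.05 without ethanol and the dashed line is equality. Slco1a4 lies near the line at 1.10 and 1.32, Slc10a1 above it at 0.60 and 1.18, and Slco1a1 at −0.14 and 1.00.

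Other genes of the pathway were taken from a list of 56 further bile acid genes, of which 36 were on the array and 32 had a tested probe set (50 probe sets). In EtOH-160 against TEN-160, 5 of these rose and 3 fell, beside 11.9% and 10.4% of all tested probe sets. In TEN-160 against TEN-220, 5 rose and 4 fell, beside 7.84% and 9.94%. None rose or fell by limma in EtOH-220 against TEN-220 or in EtOH-160 against EtOH-220, and in the interaction 0 were higher and 2 lower. Their median change was −0.04 for ethanol at 160 kcal and 0.06 for energy without ethanol, beside 0.02 and −0.03 over all tested probe sets. In the interaction it was −0.21, with 19 of 50 positive, beside 0.04.

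Scp2, which encodes sterol carrier protein and a peroxisomal thiolase that shortens the side chain, had the smallest p of the list for ethanol at 160 kcal, energy without ethanol and the interaction. Its probe set M58287_s_at averaged 195 in EtOH-160, 753 in TEN-160, 237 in EtOH-220 and 214 in TEN-220, so that TEN-160 stood apart. The change was −1.95 in EtOH-160 against TEN-160 (SE 0.276, adjusted p = 0.000439), 1.81 in TEN-160 against TEN-220 (SE 0.295, adjusted p = 0.00125) and −2.10 in the interaction (SE 0.404, adjusted p = 0.00944). A brighter Scp2 probe set gave −0.70 and 0.43 in the same pairwise comparisons, with adjusted p of 0.0457 and 0.267. Its interaction of −0.48 was not called (adjusted p = 0.417).

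Hsd17b4, the peroxisomal bifunctional enzyme of the same chain shortening, rose with ethanol at 160 kcal by 0.71 with its probe set S83279_at (SE 0.134, adjusted p = 0.00245) and fell in TEN-160 against TEN-220 (log2 change −0.63, SE 0.143, adjusted p = 0.00912). The probe sets of Hsd17b4 disagreed: S83279_g_at, from the same record, gave −0.32 and 0.34, with adjusted p of 0.12 and 0.139, rc_AI101743_s_at gave 0.03 and 0.79 (0.961 and 0.0764), and rc_AI013834_s_at gave 0.17 and −0.04 (0.54 and 0.911). Slc27a2, an acyl-CoA synthetase that activates bile acid precursors, and Abcc6, an ATP-dependent efflux transporter, rose with ethanol at 160 kcal by 0.83 (SE 0.167, adjusted p = 0.0038) and 0.76 (SE 0.197, adjusted p = 0.0148). Without ethanol, Nr1h2, the oxysterol receptor LXR beta, fell in TEN-160 against TEN-220 (log2 change −0.66, SE 0.168, adjusted p = 0.0159) and Abcb4, which moves phospholipid into bile, rose by 0.82 (SE 0.221, adjusted p = 0.0207). Nr1h2 and Slc27a2 were each called in both TEN-160 comparisons, in opposite directions, and averaged lowest in TEN-160, at 588 and 7209. The alternatives given next concern only the calls printed with their changes. The calls of Abcc6, Nr1h2 and Abcb4 were lost without some single arrays: Abcc6 had an adjusted p of 0.0658 without TEN-160 replicate 3, Nr1h2 lost its call when TEN-160 replicate 2 or TEN-220 replicate 2 or 3 was left out (adjusted p up to 0.0555), and Abcb4 did so when TEN-160 replicate 2 or TEN-220 replicate 1 or 3 was left out (up to 0.0733). The Abcb4 call was also lost with median-centred values (0.57, adjusted p 0.112) and in a fit to the groups compared alone (adjusted p 0.0587). With values as deposited, the calls of Hsd17b4, Slc27a2, Abcc6, Nr1h2 and Abcb4 were all lost. Akr1c14, a 3-alpha-hydroxysteroid dehydrogenase, was lower in the interaction, by −0.99 with S35751_f_at (SE 0.262, adjusted p = 0.0377), a call lost under 15 of 21 alternatives, while a second probe set gave −0.30 (adjusted p = 0.502).

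Genes with profiles most like the members were ranked by the root mean square (RMS) difference of standardised log2 profiles over the 13 arrays, a description with no test since all share the same arrays. For Slc10a1 these were Il6st, RT1-S3 and Slc4a4, with RMS differences of 0.368, 0.386 and 0.390. For Slco1a4 they were Glyatl2, Tcp11l2 and Cpt1a (0.357, 0.440 and 0.466), and for Slco1a1 they were Ppp1cb, Oxr1 and Mtpn (0.360, 0.432 and 0.445). Baat was closest to C4bpb, St6gal1 and Arl1 (0.363, 0.370 and 0.384). The nearest profiles were less close for D86745cds_s_at of Nr0b2, with Flnc, Uqcr11 and Alcam (0.486, 0.526 and 0.554), and for Cyp7a1, with Anpep, Adam7 and Slc10a2 (0.492, 0.546 and 0.578).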

How the data were processed

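The deposited table holds 1 column of linear intensity values per array, which the authors made with MAS5 (version not stated), per the submitters' processing notes. All 13 columns were used. The 59 control probe sets were removed from the 8799, and the arrays were quantile-normalized. Signals below the 10th percentile (9.34) were set to it and taken to log2, and the 40% dimmest probe sets were left out, which left 5244. Of these, 4309 name 1 gene in the array's annotation, 245 several and 690 none.

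The 4 group means were estimated in R 4.3.3 by limma 3.58.1 (lmFit, then eBayes with a trend, two-sided), with Benjamini-Hochberg adjustment over all tested probe sets within each of 5 comparisons; a call is an adjusted p under 0.05, and "rose" and "fell" are used of calls. Geometric means stand for group levels. Precision is limited by the number of arrays; over all tested probe sets, pairwise changes had a median SE of 0.238 to 0.254. Background was set at the 95th percentile of the signals of 19 controls absent from rat RNA. These signals were taken before quantile normalization, with TEN-220 replicate 1 rescaled by its trimmed mean. Comparisons of normalized signals with this background are therefore approximate.

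The 10 genes, the pathway and marker lists and the tests were chosen with earlier results of these data known. All probe sets of the 10 genes are given, called or not; of the pathway list, up to 4 called probe sets per comparison with the smallest p are named; likeness is given for the brightest probe set of Cyp7a1, Slc10a1 and each called gene. Same-numbered arrays of different groups did not deviate together (r between −0.112 and 0.085 over 18 pairs), which gave no sign that the numbers pair the samples. With groups of 3 or 4 arrays this check cannot exclude a pairing, and the main fit used none. The procedure was tested on simulated data. Alternatives were other scalings, floors, filters and variance models, fits to the groups compared alone, a replicate block, leaving out each array, and a fit without the TEN-160 arrays, which was chosen after seeing the data. Python 3.11.15 with matplotlib 3.10.9 drew the plots.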

Additional observations from a re-analysis of the deposited data

Results flagged for a closer look

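In the 4 EtOH-160 samples, Slco1a1 had a signal of 361.6 in replicate 2, against a group median of 451.8. Its gap to the nearest replicate was 0.89 of the group's range, above Dixon's 95% critical value for 4 samples. Of the 13 probe sets checked in this group, 1 was picked out in this way, and chance picks out about 1 in 20.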

How the results depend on the processing

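Of 65 changes (13 probe sets in 5 comparisons), no called one changed direction under any alternative; 2 of the 8 calls, Slc10a1 and Slco1a4 in TEN-160 against TEN-220, held throughout, 6 were lost under some, and 15 of the 57 others were called under at least 1. With ethanol at 160 kcal, the 3 calls became 6 with trimmed-mean scaling, 6 with median-centred values and 0 with values as deposited. With energy without ethanol, the 5 calls became 3 with values as deposited and 3 with no filter on dim probe sets. In the interaction, median-centring gave 4 calls where the count was 0. Leaving out single arrays gave 0 to 0 calls for ethanol at 220 kcal, 2 to 5 for ethanol at 160 kcal, 2 to 6 for energy without ethanol (2 without TEN-220 replicate 1), 0 to 1 for energy with ethanol and 0 to 1 for the interaction. The cause of these shifts was not tested. With a replicate block the counts were 0, 3, 5, 0 and 0, as without it; over all tested probe sets it gave 2, 890, 877, 2 and 278 calls, beside 1, 1168, 932, 15 and 374. Without the TEN-160 arrays, a setting chosen after seeing the data, ethanol at 220 kcal and energy with ethanol still gave 0 calls each. Values as deposited leave 1 TEN-220 array unscaled and moved the median change of all tested probe sets by 0.67 for ethanol at 220 kcal, 0.73 for energy without ethanol and −0.75 in the interaction; median-centring moved it by 0.11 for ethanol at 160 kcal, −0.13 for energy without ethanol and 0.19 in the interaction, and trimmed-mean scaling by −0.11 in the interaction. The share of calls that were higher was 53.3% for ethanol at 160 kcal (70.9% median-centred), 44.1% for energy without ethanol (23.9% median-centred, 94.8% as deposited), 56.7% in the interaction (80.5% median-centred, 6.15% as deposited), 73.3% for energy with ethanol (86.7% median-centred) and 0% of the 1 call for ethanol at 220 kcal (98.3% of 58 as deposited). Groups of 3 or 4 arrays, the scale of 1 array and the TEN-160 arrays standing apart limit all of these comparisons, and D86745exon_s_at of Nr0b2 near the background limits its fold.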
